A study of Mus musculus with 14 samples.

Results

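The genes described here are 34 genes of DNA replication and S phase, followed in mouse liver across a control group and 2 doses of furan. They were chosen by name for their known roles, at a time when earlier results of these data were known. A probe was taken for a gene where its accession belonged to that gene in the RefSeq table, which gave 40 probes. Of the 34 genes, 31 were measured well enough to be tested, among 21975 features in all, of which 13772 had a gene symbol. A probe was tested when the scanner software called its liver signal well above background on at least 4 of the 14 arrays. The 3 genes left out were Cdc6 (with 2 probes), Ccne2 and Orc1, whose probes were well above background on 0 of the 14 arrays. Of the 31 tested genes, 29 were well above background on all 14.

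The livers came from 14 female B6C3F1 mice, a hybrid strain common in rodent toxicology, purchased when 5 to 6 weeks old. Controls (4 mice) were gavaged with the corn oil vehicle, and furan was given by gavage at 1 mg/kg (5 mice) or 8 mg/kg body weight (5 mice) for 21 days. Furan is a volatile ring compound formed when food is heated, and the liver is its main target organ in rodents. Every mouse, controls included, also drank bromodeoxyuridine (BrdU) for the last 5 days, and livers were taken 4 hours after the final dose, so each difference below is between mice that all carried this label. BrdU is built into DNA in place of thymidine while a cell copies its genome. Values are log2 ratios of liver RNA (red dye, Cy5) over a common mouse reference RNA (green dye, Cy3), 1 array per mouse, and the submitters call the mice of a group biological replicates. In whole liver, a difference in the number of cells in S phase and a difference in RNA per cell cannot be told apart.

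DNA is copied once per cell cycle. In G1 phase the origin recognition complex, Cdc6 and Cdt1 load the ring of Mcm proteins onto DNA, and in S phase Cdc45 and the GINS proteins turn that ring into the active helicase. Primase and DNA polymerases then make new strands, held to the template by the sliding clamp Pcna, while ribonucleotide reductase supplies deoxynucleotides and chromatin assembly factors wrap the copied DNA. Many of these genes are transcribed under E2F factors, which the retinoblastoma protein holds back in resting cells. Most hepatocytes of an adult liver are in such a resting state and re-enter the cycle after injury or loss of tissue.

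Promoter sequence is shown first because these genes are known for shared E2F sites, and because the members that rose at 8 mg/kg can then be read beside it. RefSeq windows of 300 bases (250 before and 50 after the transcription start, build GRCm38.p6) were given for 28 of the 34 genes. They were searched on both strands for the E2F letters TTGGCGC, for the E2F variant with the letters TTCGCGC and for the further variant TTCCCGC; matches of these can overlap one another. At least 1 match lay in a window of 19 of the 28 genes (67.9%), against 9.2% of all 27025 genes in the table. Member windows were richer in G and C (median 59.8%) than all windows (52.7%), and among the 9690 windows at or above that member median, 17.2% held the motif. The CCAAT letters were in windows of 64.3% of the members and 41.1% of all genes, and the CHR letters, TTTGAA or alternatively the letters TTCGAA, in 21.4% and 21.7%. A match of letters is a description of the window and was not tested as a binding site. The 7 windows below run from 170 bases before the start to 30 after it, 5′ to 3′ on the gene's strand, with E2F letters in capitals. They are the 6 genes that rose in any comparison below and, for contrast, the gene lowest at 8 mg/kg, Mcm10. Mcm7 and Fen1 each have 2 windows, of which the Mcm7 window with more matches and the Fen1 window with a match are printed.
Prim1 (chr10:128015045-128015244, plus strand): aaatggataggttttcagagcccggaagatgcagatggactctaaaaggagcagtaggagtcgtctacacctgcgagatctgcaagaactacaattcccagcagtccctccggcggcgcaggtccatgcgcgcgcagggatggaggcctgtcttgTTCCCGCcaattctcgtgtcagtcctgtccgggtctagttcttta
Mcm6 (chr1:128359676-128359875, minus strand): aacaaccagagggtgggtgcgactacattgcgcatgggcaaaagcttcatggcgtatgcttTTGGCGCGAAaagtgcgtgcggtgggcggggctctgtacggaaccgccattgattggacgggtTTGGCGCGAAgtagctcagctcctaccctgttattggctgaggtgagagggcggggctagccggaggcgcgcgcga
Mcm7 (chr5:138171854-138172053, minus strand): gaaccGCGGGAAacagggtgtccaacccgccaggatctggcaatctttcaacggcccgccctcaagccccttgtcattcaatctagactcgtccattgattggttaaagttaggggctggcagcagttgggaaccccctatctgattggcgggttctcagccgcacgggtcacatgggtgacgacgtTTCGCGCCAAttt
Fen1 (chr19:10203892-10204091, minus strand): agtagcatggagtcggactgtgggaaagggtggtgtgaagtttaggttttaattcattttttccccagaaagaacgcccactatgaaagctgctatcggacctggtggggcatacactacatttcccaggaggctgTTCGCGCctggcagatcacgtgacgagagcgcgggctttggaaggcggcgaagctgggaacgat
Cdt1 (chr8:122567845-122568044, plus strand): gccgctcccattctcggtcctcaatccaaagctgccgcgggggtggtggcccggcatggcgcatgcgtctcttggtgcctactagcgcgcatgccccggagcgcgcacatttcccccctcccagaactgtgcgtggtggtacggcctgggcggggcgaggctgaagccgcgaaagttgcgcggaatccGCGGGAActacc
Pcna (chr2:132253151-132253350, minus strand): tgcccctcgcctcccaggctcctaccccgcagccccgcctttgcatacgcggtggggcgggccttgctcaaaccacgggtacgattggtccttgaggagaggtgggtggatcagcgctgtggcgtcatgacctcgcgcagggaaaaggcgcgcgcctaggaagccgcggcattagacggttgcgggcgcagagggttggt
Mcm10 (chr2:5012762-5012961, minus strand): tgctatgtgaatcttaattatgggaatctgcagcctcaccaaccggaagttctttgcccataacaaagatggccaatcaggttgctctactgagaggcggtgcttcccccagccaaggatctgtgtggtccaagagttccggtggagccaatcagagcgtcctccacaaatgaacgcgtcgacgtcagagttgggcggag

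The printed Mcm6 sequence held 4 matches in 2 stretches of capitals, each made of 2 overlapping matches on opposite strands. The nearer of these printed stretches started 46 bases before the transcription start. The full Mcm6 window held 5 matches in 3 stretches, the last of them after the start and cut off by the printed end. The Prim1 match started 15 bases before the start and the Fen1 match 34 bases before it. The printed Cdt1 match lay 18 bases after the start. The full Cdt1 window held 2 matches, the second beyond the printed end. The Pcna and Mcm10 windows held none of these letters, and both held CCAAT on one strand or the other. Among tested genes with a window, the 17 members with the motif had a median difference at 8 mg/kg against control of 0.25 on the log2 scale, and 3 of them rose (Prim1, Mcm6 and Cdt1). The 9 members without it had a median of 0.17, and Pcna rose. For all other named genes the medians were 0.02 with the motif (1643 genes, of which 57 rose) and 0.01 without it (9298 genes, of which 296 rose). A link between the motif and the differences was not tested.

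The first comparison asked how the higher dose of furan, 8 mg/kg, stood against control. Prim1 (primase), Mcm6 (helicase), Pcna (sliding clamp) and Cdt1 (licensing) rose, by 0.34 to 0.87 on the log2 scale, none fell, and 27 of the 31 did not pass the test. The test was limma's, fitted to all 14 arrays with the slide as a block, and a gene was called at a Benjamini-Hochberg adjusted p under 0.05 over all 21975 features. In the same test 4.09% of all features were called, and 2.73% were called higher. The median difference of the 31 members was 0.23 (from -0.26 to 0.87), with 26 above 0 and 5 below, against a median of 0.0018 over all features. At an unadjusted p under 0.05, 14 members were higher (45.2%) and 1 was lower, where 11.6% of all features were higher. Within slides, 13 of 31 members were higher at 8 mg/kg on each of the 4 slides that held both groups, which was the case for 14.4% of all features. In 5 members, Prim1, Mcm6, Mcm7, Pcna and Rfc4, the lowest of the 5 values at 8 mg/kg lay above the highest of the 4 control values, and 3.47% of all features showed such a gap.

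The calls were few and depended on single arrays. Prim1 kept its call in 26 of 29 alternative analyses (difference 0.56 to 0.90), Mcm6 in 17 (0.68 to 1.04), Pcna in 7 (0.26 to 0.49) and Cdt1 in 5 (0.28 to 0.61), all with the same sign. The alternatives are not all separate checks: Aquantile scaling between arrays leaves the log ratios as they are and repeats the main values, and leaving out 1 mg/kg replicate 2 or 8 mg/kg replicate 3 gives the same fit, since the mouse left alone on slide 5 is taken up by the slide term. Without control replicate 1 or control replicate 3, 0 members were called, and with any of 8 mg/kg replicate 1, 3 or 5, control replicate 2 or 4, or 1 mg/kg replicate 2 left out, 1 member, Prim1, was called. The count over all features fell in these fits too, from 898 to between 315 and 564. The 3 arrays of slide 3 stood apart from the others on the first principal component of all features (22.8 to 34.8, against -23 to 13.3 on the other slides, for 30.7% of the variance). Without slide 3, Prim1 and Mcm6 were called, among 399 features in all, and the median of the members was 0.24.

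**Figure D1:**
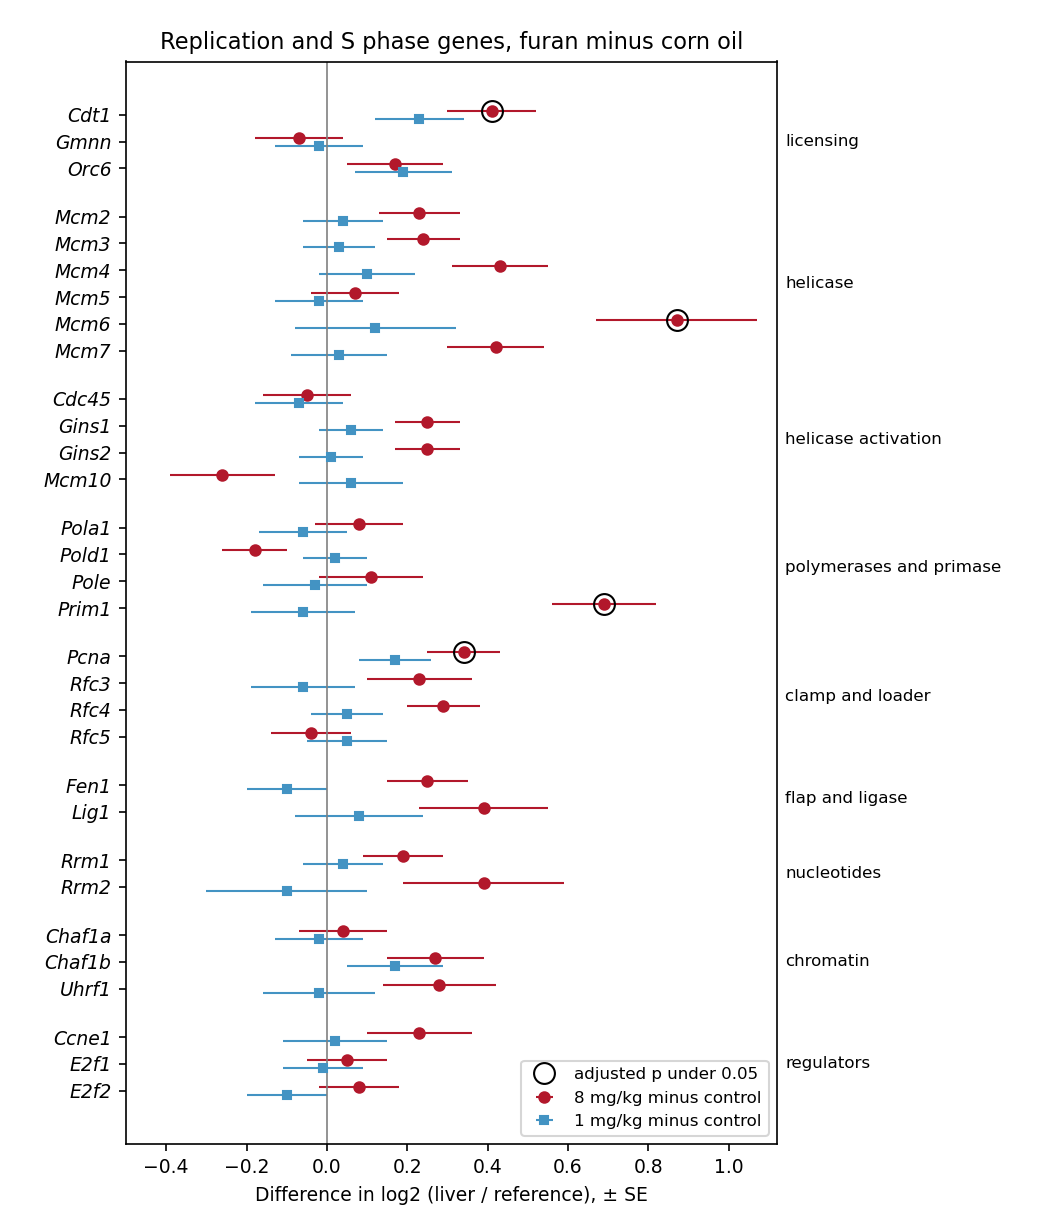
Difference in log2 (liver / reference) from corn oil controls for the 31 tested genes, ordered by role, at 8 mg/kg (red circles) and 1 mg/kg (blue squares), with bars for ± SE from the fit (n = 5 against 4 mice). Black rings mark adjusted p under 0.05: Cdt1, Mcm6, Prim1 and Pcna at 8 mg/kg, and no gene at 1 mg/kg.

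Licensing genes were mixed. Cdt1, which brings the Mcm ring to origins, had control values of -3.23, -3.35, -3.48 and -3.61, values of -3.13, -3.15, -3.25, -3.16 and -3.32 at 1 mg/kg, and -3.06, -3.05, -3.18, -3.24 and -2.58 at 8 mg/kg. The highest mouse was 8 mg/kg replicate 5, and the groups overlapped narrowly, since control replicate 1 reached the lowest value at 8 mg/kg. Cdt1 rose by 0.41 ± 0.11 (SE, limma adjusted p = 0.0491, 1.33-fold), with differences of 0.17 to 0.77 on the 4 slides. Its inhibitor geminin (Gmnn), which keeps licensing from starting again in S phase, differed by -0.07 ± 0.11 (adjusted p = 0.775). The origin recognition subunit Orc6 differed by 0.17 ± 0.12 (adjusted p = 0.455) and did not pass. For Orc1 and Cdc6 there is no level above background to compare.

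All 6 subunits of the Mcm2-7 helicase had a positive difference at 8 mg/kg, with a median of 0.33, and 1 of them, Mcm6, rose. Mcm6 values were -4.01, -4.04, -4.15 and -4.29 in controls, -4.15, -4.53, -4.26, -3.78 and -3.77 at 1 mg/kg, and -2.63, -3.68, -3.63, -3.82 and -2.97 at 8 mg/kg. Every mouse at 8 mg/kg was above every control, replicates 1 and 5 stood highest, and the others at that dose lay near the top of the 1 mg/kg group. The rise was 0.87 ± 0.20 (SE, limma adjusted p = 0.0277, 1.82-fold), and on the 4 slides the difference was 1.38, 1.07, 0.47 and 0.47.

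Mcm7, another subunit of the ring, had -3.28, -3.22, -3.10 and -3.42 in controls, -3.07, -3.12, -3.50, -2.99 and -3.48 at 1 mg/kg, and -2.39, -2.94, -2.93, -3.05 and -2.86 at 8 mg/kg. The 8 mg/kg and control mice did not overlap, and replicate 1 at 8 mg/kg stood well above the other mice. The difference of 0.42 ± 0.12 missed the threshold (adjusted p = 0.0562). Mcm4 had -4.11, -3.94, -4.25 and -4.13 in controls, -4.05, -4.04, -4.08, -4.08 and -3.85 at 1 mg/kg, and -3.65, -3.75, -3.79, -4.07 and -3.20 at 8 mg/kg. In Mcm4 the highest mouse was replicate 5 at 8 mg/kg, and replicate 4 of that dose lay within the control range. The difference was 0.43 ± 0.12 (adjusted p = 0.0722). Mcm3 (0.24 ± 0.09, adjusted p = 0.171) and Mcm2 (0.23 ± 0.10, adjusted p = 0.209) were higher on 4 of 4 slides without passing, and Mcm5 differed by 0.07 ± 0.11 (adjusted p = 0.752). Among controls, the Mcm2 probe was well above background on 3 arrays of 4.

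Of the 4 genes that activate the helicase, none passed the test, and 2 had positive and 2 negative differences. The GINS subunit Gins1 had -2.27, -2.12, -1.95 and -2.07 in controls, -2.32, -2.09, -1.98, -1.98 and -1.93 at 1 mg/kg, and -1.84, -1.84, -1.99, -1.84 and -1.84 at 8 mg/kg. The 8 mg/kg mice were nearly equal apart from replicate 3, which lay within the control range. The difference was 0.25 ± 0.08 (adjusted p = 0.119). Gins2, of the same complex, had -2.77, -2.58, -3.28 and -3.02 in controls, -2.84, -2.60, -2.67, -3.22 and -2.87 at 1 mg/kg, and -2.40, -3.00, -2.34, -2.90 and -2.34 at 8 mg/kg. Replicates 2 and 4 at 8 mg/kg lay inside the control range and the other 3 above it. The difference was 0.25 ± 0.08 (adjusted p = 0.111), with 0.12 to 0.37 on the 4 slides.

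Mcm10, which supports activation of the helicase and start of synthesis, was the member with the lowest difference. Its values were 2.06, 2.03, 2.53 and 2.32 in controls, 2.13, 1.83, 2.36, 2.65 and 2.25 at 1 mg/kg, and 1.67, 1.83, 1.98, 2.20 and 1.97 at 8 mg/kg. The groups overlapped, although 8 mg/kg was lower on each of the 4 slides, and the difference of -0.26 ± 0.13 did not pass (adjusted p = 0.28). Liver signal for Mcm10 was above that of the reference in every mouse, unlike that of the other tested members, which were below the reference, and whether this probe measures Mcm10 RNA could not be checked here. Cdc45, which binds the ring together with GINS, was above background by the scanner's call on 0 of 4 arrays in controls, 3 of 5 at 1 mg/kg and 4 of 5 at 8 mg/kg. Its mean log2 liver channel signal was 6.64 in controls, 6.70 at 1 mg/kg and 6.76 at 8 mg/kg. The fitted ratio for Cdc45 differed from control by -0.07 ± 0.11 at 1 mg/kg (adjusted p = 0.926) and by -0.05 ± 0.11 at 8 mg/kg (adjusted p = 0.854). These values show no direction for Cdc45, and no fold is given, since no control array measured it well above background and it entered the test through the furan groups.

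Prim1, the catalytic subunit of primase, had the clearest separation among the 4 genes of polymerases and primase. It measured -3.39, -3.54, -3.83 and -3.55 in controls, -3.60, -3.76, -3.84, -3.44 and -3.68 at 1 mg/kg, and -2.33, -3.13, -3.04, -3.19 and -2.90 at 8 mg/kg. All 5 mice at 8 mg/kg were above all mice of the other groups, with replicate 1 the highest, and the 1 mg/kg and control ranges were nearly the same. Prim1 rose by 0.69 ± 0.13 (SE, limma adjusted p = 0.0120, 1.61-fold), by 1.06, 0.63, 0.70 and 0.36 on the 4 slides. The polymerases themselves did not pass. Pola1, the catalytic subunit that works with primase, differed by 0.08 ± 0.11 (adjusted p = 0.728), and Pole, of the leading strand polymerase, by 0.11 ± 0.13 (adjusted p = 0.682). Pold1, catalytic subunit of the lagging strand polymerase, was lower on each of the 4 slides, by -0.18 ± 0.08 (adjusted p = 0.212).

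In the clamp and its loader, Pcna rose. This ring holds polymerases on DNA and is also used in DNA repair. Its values were -2.93, -2.91, -2.84 and -2.92 in controls, -2.86, -2.77, -2.77, -2.63 and -2.71 at 1 mg/kg, and -2.38, -2.47, -2.69, -2.76 and -2.60 at 8 mg/kg. Controls lay close together, all 8 mg/kg mice were above them, and the 1 mg/kg mice lay between and overlapped both. The rise at 8 mg/kg was 0.34 ± 0.09 (SE, limma adjusted p = 0.0483, 1.26-fold), and it was 0.17 to 0.55 on the 4 slides.

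Rfc4, a subunit of the loader that opens the clamp, had -2.96, -3.11, -2.93 and -2.95 in controls, -3.04, -2.91, -2.87, -2.87 and -2.97 at 1 mg/kg, and -2.47, -2.80, -2.69, -2.87 and -2.65 at 8 mg/kg. The 8 mg/kg and control mice did not overlap, with replicate 1 at 8 mg/kg the highest. The difference was 0.29 ± 0.09 (adjusted p = 0.103), and the second Rfc4 probe gave 0.06 ± 0.09, so the probes disagree in size. The loader subunits Rfc3 (0.23 ± 0.13, adjusted p = 0.362) and Rfc5 (-0.04 ± 0.10, adjusted p = 0.861) did not pass.

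On the lagging strand, Fen1 removes the RNA primer flap and Lig1 seals the fragments. Fen1 had -3.00, -2.85, -3.05 and -3.08 in controls, -2.89, -3.35, -2.99, -3.33 and -3.13 at 1 mg/kg, and -2.35, -2.99, -2.91, -3.03 and -2.66 at 8 mg/kg. Replicates 1 and 5 at 8 mg/kg were above all other mice, and the remaining 3 overlapped with both other groups. Against control the difference was 0.25 ± 0.10 (adjusted p = 0.176). Lig1 differed by 0.39 ± 0.16 (adjusted p = 0.188), with 0.78 and 0.89 on slides 1 and 2 but 0.07 and -0.09 on slides 3 and 4.

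Ribonucleotide reductase makes deoxynucleotides, with Rrm1 as its large subunit and Rrm2 as the small subunit that limits it in S phase. Rrm2 differed by 0.39 ± 0.20 (adjusted p = 0.308), and that value rested on slide 1, where the difference was 1.51, against 0.23, -0.12 and -0.01 on the others. Rrm1 differed by 0.19 ± 0.10 (adjusted p = 0.297). Among genes that rebuild chromatin behind the fork, Chaf1b of chromatin assembly factor 1 differed by 0.27 ± 0.12 (adjusted p = 0.212; a second probe gave 0.36 ± 0.12), its partner Chaf1a by 0.04 ± 0.11, and Uhrf1, which guides DNA methylation to new strands, by 0.28 ± 0.14 (adjusted p = 0.284). The regulators of entry into S phase did not pass. Cyclin E1 (Ccne1) differed by 0.23 ± 0.13 (adjusted p = 0.346), and the transcription factors E2f1 and E2f2 by 0.05 ± 0.10 and 0.08 ± 0.10.

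**Figure D2:**
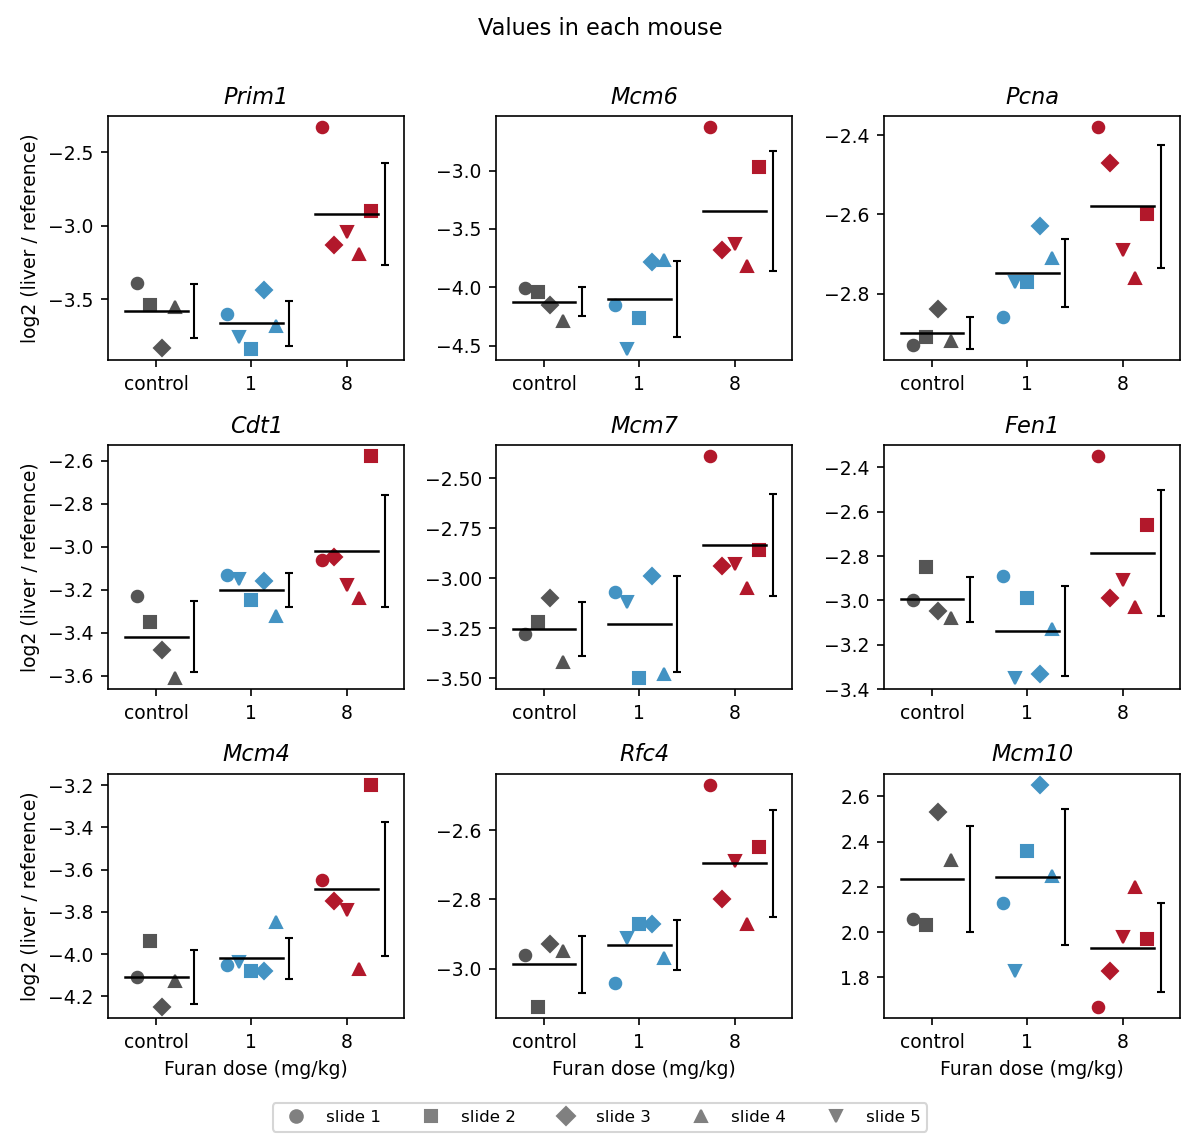
Log2 (liver / reference) in each mouse for 9 of the genes described by sample, by furan dose in mg/kg, each panel with its own axis. Symbols give the slide, horizontal lines the group mean and the bar beside each group its SD (n = 4, 5 and 5); for Prim1 all 5 mice at 8 mg/kg lie above the other 9, while Mcm10 overlaps and is lower at 8 mg/kg.

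The lower dose, 1 mg/kg, was compared with the same controls, so its differences share those arrays with the comparison above. No member passed the test: the median was 0.02 (from -0.10 to 0.23), with 18 above 0 and 13 below, and the median of all features was 0.029. In limma's test 0% of all features had an adjusted p under 0.05, and the smallest adjusted p was 0.0588. At an unadjusted p under 0.05 stood 0 of 31 members and 6.87% of all features. Side by side, the values at 1 and 8 mg/kg were -0.06 ± 0.13 and 0.69 ± 0.13 for Prim1, and 0.12 ± 0.20 and 0.87 ± 0.20 for Mcm6. For the other pair of called genes they were 0.17 ± 0.09 and 0.34 ± 0.09 for Pcna, and 0.23 ± 0.11 and 0.41 ± 0.11 for Cdt1. Pcna and Cdt1 were higher at 1 mg/kg on 4 of 4 slides, with adjusted p of 0.74 and 0.726 in the same fit. The share of all features higher on 4 of 4 slides was not counted at this dose, where 60.4% of all features had a fitted difference above 0. Fits on the authors' deposited value table and on unfiltered probes each called 1 feature at this dose, and neither called a member.

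The 2 doses were then set against each other directly. Prim1, Mcm6, Mcm7 and Fen1 were higher at 8 than at 1 mg/kg, none was lower, and 5.29% of all features were called, 2.41% as higher. Prim1 differed by 0.75 ± 0.12 (SE, limma adjusted p = 0.00365, higher on 5 of 5 slides) and was called in 29 of 29 alternatives. Mcm6 differed by 0.75 ± 0.18 (adjusted p = 0.0296), Mcm7 by 0.40 ± 0.11 (adjusted p = 0.0455) and Fen1 by 0.35 ± 0.09 (adjusted p = 0.0402). In Mcm6 the dose groups overlapped, because replicates 4 and 5 at 1 mg/kg (-3.78 and -3.77) lay above replicate 4 at 8 mg/kg (-3.82). These 3 calls held in 18, 12 and 11 of the 29 alternatives, and without 8 mg/kg replicate 1, 3 or 5, or without 1 mg/kg replicate 1, 2 or 3, 1 member, Prim1, was called. The count over all features fell in those fits too, from 1162 to between 421 and 725. Pcna (0.17 ± 0.08, adjusted p = 0.254) and Cdt1 (0.18 ± 0.10, adjusted p = 0.316), which rose against control, did not differ beyond the threshold between the doses. The median over members was 0.18, against -0.023 over all features.

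Mice at 8 mg/kg differed among themselves in these genes more than control mice did. The mean over the 31 members, taken for each mouse as the deviation from each gene's mean over the 14 arrays, was 0.42, -0.10, 0.16, -0.09 and 0.26 in replicates 1 to 5 at 8 mg/kg. Controls lay at -0.01, -0.05, -0.17 and -0.15 and the 1 mg/kg mice at -0.06, 0.01, -0.08, -0.11 and -0.06. On this scale 3 mice at 8 mg/kg were above the range of all other mice, and replicates 2 and 4 were within it. With the fitted slide effect removed, the 5 values were 0.30, 0.02, 0.11, 0.01 and 0.21, against -0.13 to -0.05 in controls and -0.18 to 0.04 at 1 mg/kg. Replicates 2 and 4 were then above every control and still within the 1 mg/kg range. The SD of this mean was 0.08 in controls, 0.04 at 1 mg/kg and 0.23 at 8 mg/kg, and 0.04, 0.09 and 0.13 after the fitted slide effect was removed. For single genes, the median SD of the members was 0.16, 0.16 and 0.28 across the 3 groups, and that of all features was 0.16, 0.17 and 0.17. The SD was larger at 8 mg/kg than in controls for 27 of 31 members and for 55.3% of all features, and with the slide effect removed for 29 of 31 and 54%. These are descriptions with no test.

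Replicate 1 at 8 mg/kg had the highest value of all 14 mice in 18 of 31 members, where it was the highest in 7.93% of all features. It exceeded the highest control in 27 members, replicate 5 did so in 24 and replicate 3 in 21, against 24.5%, 24.1% and 21.4% of all features. Replicates 2 and 4 did so in 10 and 7 members, against 28.5% and 19% of all features. Without replicate 1 the median difference of the members from control was 0.14.

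**Figure D3:**
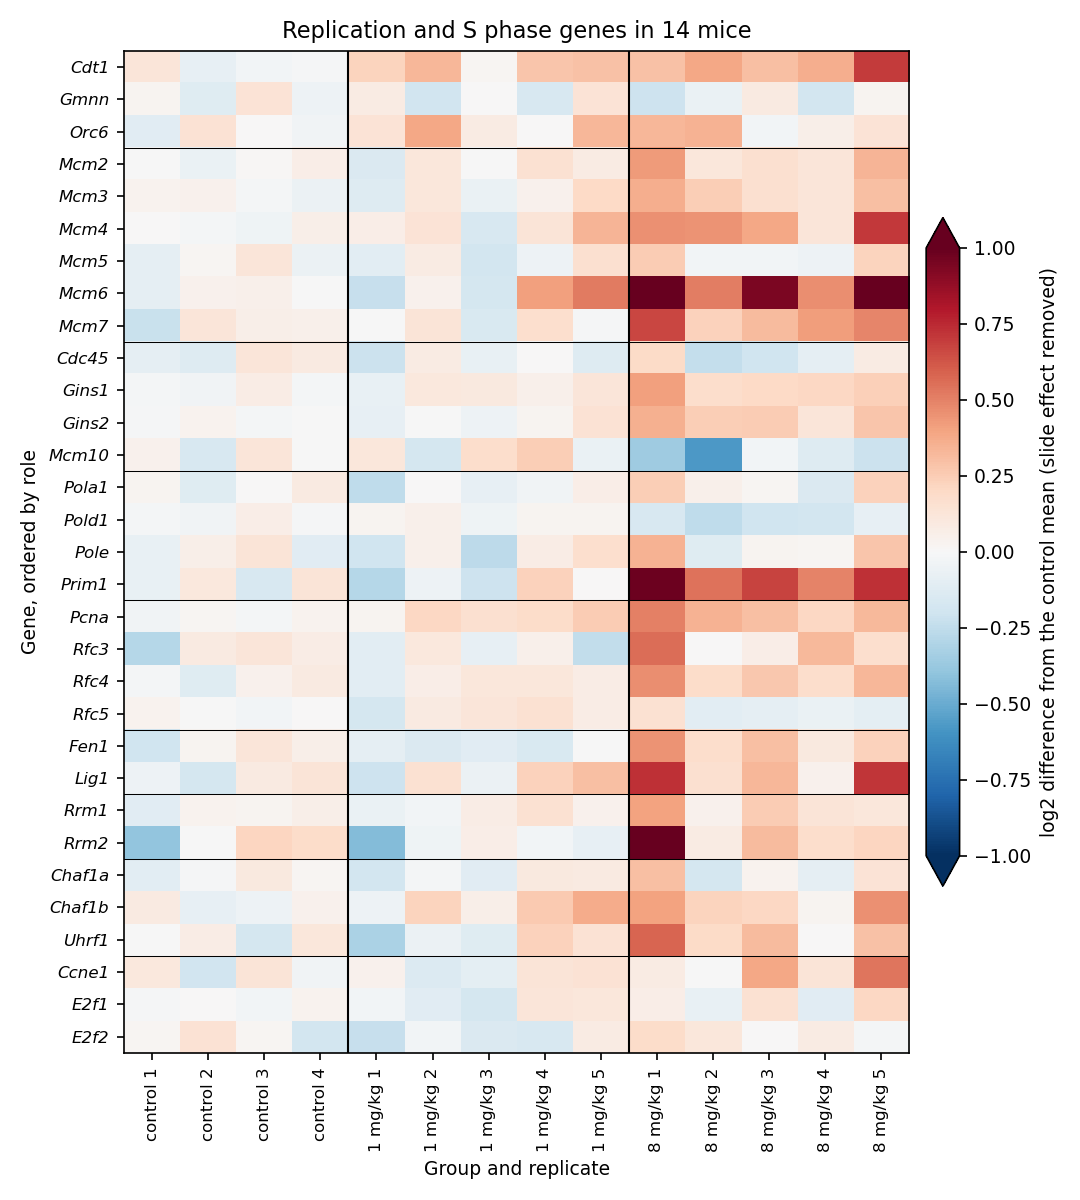
Log2 difference of each of the 31 genes (rows, ordered by role) in each of the 14 mice (columns) from the control mean, after the fitted slide effect was removed. Red is above and blue below the control mean, with differences past 1 shown in the darkest colour. By mouse, 21 to 28 of the 31 genes lie above the control mean at 8 mg/kg and 8 to 25 at 1 mg/kg. In all 5 mice at 8 mg/kg, Mcm6 and Prim1 are red, and Mcm10 and Pold1 are blue.

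The members were also compared within slides. On slide 1 the median of the members at 8 mg/kg against the control on the same slide was 0.42, with 27 of 31 higher, and on slide 2 it was 0.23, with 26 higher. On slides 3 and 4 the medians were 0.07 and 0.06, with 19 higher on each, and the medians of all features on slides 1 to 4 were 0.03, 0.01, -0.03 and 0.03. Against 1 mg/kg the medians on slides 1 to 5 were 0.48, 0.33, 0.05, -0.05 and 0.10. Each slide held at most 1 mouse per dose and was scanned in 1 run, so a mouse, its slide and its scan cannot be told apart within a slide. Mitosis genes, a list of other cell cycle genes, had medians of 0.82, 0.19, 0.15 and -0.17 on slides 1 to 4 at 8 mg/kg against control.

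**Figure D4:**
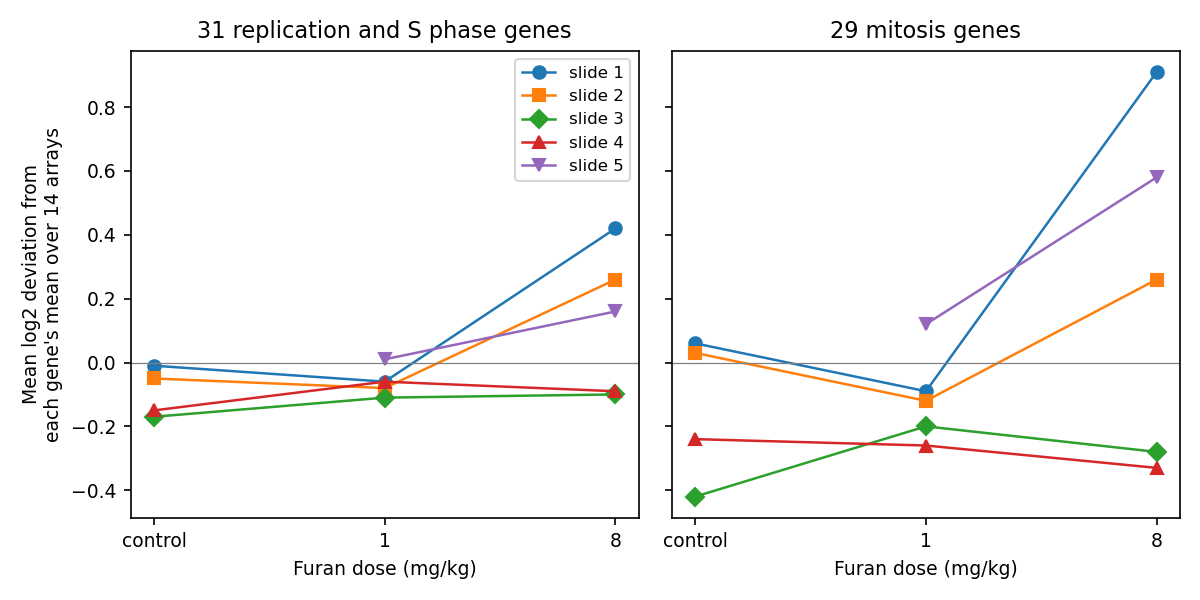
Mean log2 deviation from each gene's mean over 14 arrays for the 31 replication and S phase genes (left) and 29 mitosis genes (right), by furan dose in mg/kg, with each line joining the mice of 1 slide (slide 5 held no control). At 8 mg/kg the mice of slides 1, 2 and 5 lie above 0 in both panels and those of slides 3 and 4 below 0.

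Members varied together from mouse to mouse within the groups. After slide and group effects were removed over the 14 arrays (7 residual degrees of freedom), the 465 pairs of members had a median Pearson r of 0.48, and 85.6% were above 0. Each member's r with the mean of the others had a median of 0.72, whereas all features had a median r of 0.06 with the member mean. The genes most like the rest were Chaf1a (0.97), Lig1 (0.95), Mcm6 (0.94) and Mcm2 (0.92). Those least like it were Gmnn (-0.15), Mcm10 (-0.13), Cdt1 (0.21), Orc6 (0.24) and E2f2 (0.25). Arrays on 1 slide shared processing, and no p is given.

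Other genes of the same pathways were read at 8 mg/kg against control from lists that hold no member. Of 14 tested licensing and helicase factors outside the members, 0 passed (median 0.04), with Topbp1, which helps start replication, at 0.18 ± 0.09. Of 24 further polymerase, clamp and fork factors 0 passed (median 0.05). The largest difference there by p was that of Timeless, a fork protection factor (0.25 ± 0.09, adjusted p = 0.121), and topoisomerase Top2a was at 0.07 ± 0.15. Of 9 genes of S phase chromatin 0 passed (median 0.03), the maintenance methyltransferase Dnmt1 being lower on each slide at -0.19 ± 0.09 (adjusted p = 0.262). At an unadjusted p under 0.05 these 3 lists had 0, 4 and 0 genes higher, where 11.6% of all features were higher. The 4 genes were 16.7% of their list. The difference between these lists and the members was not tested.

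Nucleotide supply was divided, with 0 of 11 genes past the threshold and 2 higher and 2 lower at an unadjusted p under 0.05. At that p, 11.6% of all features were higher and 8.75% lower. Ctps, which makes CTP, differed by 0.48 ± 0.13 (adjusted p = 0.0524) and was higher at 8 than at 1 mg/kg (0.72 ± 0.12, adjusted p = 0.00378). Thymidine kinase (Tk1), which phosphorylates thymidine and BrdU, had -0.22, -0.55, -0.01 and -0.21 in controls and -0.60, -0.98, -0.60, -0.63 and -0.55 at 8 mg/kg. The groups met at control replicate 2, and the difference was -0.39 ± 0.15 (adjusted p = 0.153). Rrm2b, the alternative small subunit of the reductase, was not tested.

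Regulators upstream of S phase included genes that rose, where 2.73% of all features were called higher. Of 21 other G1 to S regulators 2 rose, Myc, a transcription factor that drives growth (1.13 ± 0.17, limma adjusted p = 0.00212), and cyclin D1 (Ccnd1, 0.66 ± 0.13, adjusted p = 0.0158). E2f3, another E2F family member, differed by 0.41 ± 0.12 (adjusted p = 0.0833). Of 16 brakes on the cell cycle 5 rose, several of them known p53 targets. These were Cdkn1a, the p21 inhibitor of cyclin dependent kinases that also binds Pcna (2.19 ± 0.17), Ccng1 (1.01 ± 0.10), Trp53inp1 (0.81 ± 0.14), Sesn2 (0.76 ± 0.12) and Gadd45g (0.68 ± 0.16), with adjusted p from 2.25e-05 to 0.0305. Gadd45g lies outside the naming rule and was chosen after its value was seen. Cdkn1a was highest in replicate 1 at 8 mg/kg (-0.69), the mouse that was highest in most members, and lay at -1.92, -1.95, -2.31 and -1.62 in the others of that dose and between -4.15 and -3.71 in controls. Myc was -1.82, -2.74, -1.67, -3.16 and -1.84 in replicates 1 to 5, lower in replicates 2 and 4.

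Of 29 mitosis genes 1 rose, Spc25, a kinetochore subunit (0.75 ± 0.14, adjusted p = 0.011). Their median was 0.25, with 22 above 0 and 7 below, and the median over all features was 0.0018. At an unadjusted p under 0.05, 10 of them were higher (34.5%), against 11.6% of all features. Of all features, 2.73% were called higher. The proliferation marker Mki67 had -3.50, -5.13, -4.33, -5.14 and -4.77 at 8 mg/kg and -5.03, -4.80, -5.51 and -5.58 in controls, and differed by 0.62 ± 0.22 (adjusted p = 0.122). It too was highest in replicates 1, 3 and 5 at 8 mg/kg, although replicate 5 was barely above the highest control. Kif20a, Ect2 and Birc5, which act in spindle and cell division, differed by 0.79 ± 0.21, 0.64 ± 0.19 and 0.89 ± 0.26 with adjusted p of 0.0528, 0.0743 and 0.0744. Cdk1, the kinase of mitotic entry, was well above background on 4 arrays.

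Liver identity and depth were checked alongside. All 7 hepatocyte markers were well above background on all 14 arrays, and 1 of them, Cps1 of the urea cycle, fell at 8 mg/kg (-0.34 ± 0.08, adjusted p = 0.0335). The log2 of their summed liver channel signal was 20.43 to 20.76 in controls, 20.27 to 20.73 at 1 mg/kg and 20.26 to 20.77 at 8 mg/kg. Markers of other cell types of liver and blood were read beside the members, and none of them passed at 8 mg/kg, the nearest being the macrophage receptor Marco (0.66 ± 0.19, adjusted p = 0.0615). Summed signals of 7 macrophage genes were 14.24 to 14.77 in controls and 14.26 to 14.88 at 8 mg/kg, of 6 T and NK cell genes 12.79 to 13.12 and 12.34 to 13.36, and of 6 B and plasma cell genes 11.16 to 11.67 and 10.98 to 11.87. Those of 6 neutrophil and precursor genes were 10.20 to 10.36 and 10.06 to 10.51, with Mpo and Ngp above background on no array, and those of 6 erythroid genes 16.98 to 17.90 and 16.93 to 17.52. For 6 endothelial genes they were 14.54 to 14.64 and 14.14 to 14.61, for 6 stellate genes 14.65 to 15.19 and 14.45 to 14.97, and for 5 cholangiocyte genes 10.97 to 11.46 and 10.72 to 11.58. Between the doses 1 such marker, the stellate gene Lrat, was lower at 8 than at 1 mg/kg (-0.64 ± 0.15, adjusted p = 0.0289). The part of these markers in the member differences was not tested. The scanner software called 23062 to 29847 of the 55681 probes well above background per array (41.4% to 53.6%). No spot was saturated, and precision is limited by the number of arrays.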

How the data were processed

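Liver RNA of 14 mice was measured on 2-colour Agilent arrays. Per the file headers, the deposited scanner files hold spot intensity values read with Feature Extraction 10.7.3.1, as medians of spot and local background. The authors also deposited a value table of linear ratio values, sample over reference, whose log2 correlated with the log2 ratios computed here at r of 0.992 to 0.995 (slopes 1.01 to 1.03, column medians 0.9765 to 0.9897); the method that normalized it was not given in the sources used here. It served as an alternative.

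With limma 3.58.1 (R 4.3.3), intensities were corrected by normexp (offset 50) and normalized by loess within each array, control spots carrying no weight. Spots flagged as outliers (178 to 336 per array) were left out and repeated spots averaged to 55681 probes, of which 28866 passed the background filter. The probe with the highest mean liver signal stood for a gene. Probes were named by accession from RefSeq (GRCm38.p6), which gave 26413 of them a symbol; the arrays' own positions refer to an older build and are not printed. Differences were fitted with lmFit and eBayes on all 14 arrays with the slide (5 slides) as a fixed block, because the submitters describe a randomized block design. Leaving out slide 3, whose arrays stood apart, was an alternative. With groups of 4 or 5 mice, smaller changes may not be called. In all, 29 alternatives were run.

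No pairing of mice by replicate number was seen. Same-numbered mice of different groups on different slides had a median correlation of -0.14 in their deviations from group means (9 pairs). Pairs that shared neither number nor slide had a median of -0.08 (43 pairs). The slide effect was left in these deviations, so a pairing is not excluded. Mice of different groups on 1 slide had a median of 0.34 where their numbers differed (9 pairs). It was 0.165 for the 4 pairs that shared both slide and number.

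The genes and lists were chosen with earlier results of these data known. By rule, genes past the threshold in any comparison were described by sample, then others by smallest p up to 10, plus the lowest; from each other list, up to 4 genes by smallest p were named, with a few set markers. Animals without BrdU were not analysed here.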

Additional observations from a re-analysis of the deposited data

Results flagged for a closer look

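Among 96 groups of 4 or 5 values, from the 31 tested genes and the mean over them in each dose group, 6 held a mouse far from the others of its group by Dixon's criterion, and chance alone gives about 1 in 20 such groups. All values are log2 (liver / reference). Cdt1 in 8 mg/kg replicate 5 was -2.58, above the other mice of that dose at -3.24 to -3.05. Gins1 in 8 mg/kg replicate 3 was -1.99, below the others, which were all at -1.84. In the 1 mg/kg group, Mcm4 in replicate 5 was -3.85, above -4.08 to -4.04 in the others, and Mcm3 in replicate 2 was -3.04, below -2.90 to -2.86. Among controls, Pole in replicate 4 was -3.30, below -2.99 to -2.95, and Rfc4 in replicate 2 was -3.11, below -2.96 to -2.93.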

How the results depend on the processing

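No difference of a named result changed sign past the threshold in the 29 alternatives. Against the 898 features and 4 members called at 8 mg/kg against control, a fit with no slide term called 273 and 1, only the groups compared 302 and 2, all slides but slide 3 399 and 2, a normexp offset of 10 463 and 1, and the scanner's processed signals 389 and 1. Median centring in place of loess called 1351 features (96.4% higher, against 66.7%) and 15 members, moved the median of all features to 0.14 and that of the members to 0.45, and at 1 mg/kg to 0.15 and 0.20; relative to all features the members then stood 0.31 and 0.05 higher. Of the members, 2 were called with no background correction, 2 with the authors' value table, 2 with no filter on dim probes and 7 in the liver channel alone, where 52.4% of 1339 called features were higher. At 1 mg/kg, 1 feature was called with no background correction, 1 with offset 10, 4 with median centring, 1 with the authors' table and 1 with no filter. Between the doses (1162 features, 4 members), the counts were 297 and 1 with no slide term, 710 and 1 with offset 10, 410 and 2 with median centring, and 430 and 1 with processed signals, and 2 members were called from only the groups compared. With the replicate number as a block in place of the slide, 122 features and 0 members were called at 8 mg/kg against control. Between the doses that fit called 150 and 1. No pairing by number was seen, although it is not excluded. Across groups, 3 of 14 arrays correlated best with an array of their own number. Leaving out each mouse in turn gave 315 to 869 features and 0 to 5 members at 8 mg/kg against control, 0 to 3 features at 1 mg/kg, and 421 to 1254 features and 1 to 5 members between the doses. The count at 8 mg/kg was lowest without 8 mg/kg replicate 1. The median of the members stayed between 0.14 and 0.27 in those fits, the spread of their mean at 8 mg/kg between 0.09 and 0.14, and the median pairwise r between 0.34 and 0.50. Causes of these shifts were not tested. Genes at or near background, such as Cdc45, Cdc6, Ccne2 and Orc1, are limited by signal.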
